A study of Rattus norvegicus with 13 samples.

Results

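C14h1orf146, Cd34, Cd200r1, Olr59, Ptpro, Slc9a4 and Nkg7 were 7 genes whose signal in rat brain differed between individual arrays far more than that of most genes. They were chosen by the measured signal itself, as genes among the widest or with outlying arrays, so the spread described here is how they were found and was not tested. They were 7 of 14506 genes measured, and each had 1 probe set, a group of short probes summarised to 1 value, among 29214 in the whole table. The samples were brains without the cerebellum from male Fischer F344 rats, an inbred strain, 15 months old, with 1 array per sample. The 7 maternal control arrays came from offspring of mothers on a control diet. The 6 maternal fructose arrays came from offspring of mothers given a high fructose diet through gestation, from its day 1, and lactation. All offspring were weaned at day 20 onto chow. The labels name no litter and do not say that every sample was a separate animal, so the p-values below measure only the spread between these samples, which may be technical.

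The 7 genes belong to different systems. C14h1orf146 is the rat counterpart of human C1orf146, which encodes SPO16, a protein of meiotic crossover formation. Cd34 encodes a sialomucin on blood progenitors and vascular endothelium, and Cd200r1 an inhibitory receptor of myeloid cells whose ligand, CD200, is carried by neurons. Olr59, also named Or51e2 or Olfr78, is an olfactory receptor gene known for expression outside the nose. Ptpro encodes a receptor-type tyrosine phosphatase of podocytes and neurons, Slc9a4 the sodium-proton exchanger NHE4, and Nkg7 a granule protein of natural killer and cytotoxic T cells. In whole brain, a difference in signal can follow from the share of a cell type or region in the sample or from the RNA made per cell, and these cannot be told apart in bulk RNA.

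The 6 genes other than Nkg7 varied on overlapping sets of arrays, and C14h1orf146, Olr59, Cd34 and Cd200r1 were lowest on the same 3 arrays. The bases just upstream of the first 3 are shown because these genes share a pattern of signal without sharing a family or chromosome. Each sequence is the 120 bases before the RefSeq start of the gene (GRCr8), written 5′ to 3′ along the gene, and capitals mark CG dinucleotides. Cd200r1 had no entry.
C14h1orf146, chr14:2395327-2395446, minus strand: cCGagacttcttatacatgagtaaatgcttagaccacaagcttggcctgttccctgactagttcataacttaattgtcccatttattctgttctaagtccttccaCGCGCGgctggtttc
Olr59, chr1:166610904-166611023, minus strand: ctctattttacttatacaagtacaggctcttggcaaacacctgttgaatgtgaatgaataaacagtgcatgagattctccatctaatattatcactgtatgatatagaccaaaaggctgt
Cd34, chr13:109008666-109008785, plus strand: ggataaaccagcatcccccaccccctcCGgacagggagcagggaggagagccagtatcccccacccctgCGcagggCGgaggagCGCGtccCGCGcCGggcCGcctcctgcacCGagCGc
The stretches differed in base composition: 74.2% G and C with 11 CG dinucleotides upstream of Cd34, 44.2% with 4 upstream of C14h1orf146, and 35.0% with 0 upstream of Olr59. The median of the 33469 such windows in the RefSeq table was 53.3% with 3 CG dinucleotides. The 3 windows were searched on both strands for 5 short motifs. The GC box, GGGCGG, matched once, beginning 47 bases before the start of Cd34, and is held by 23.7% of all windows of this length. The motif CCAAT matched none of the 3 and is held by 19.9%. The motif TATAAA, held by 6.66%, the homeobox core TAATTA, held by 1.9%, and the E-box CACGTG, held by 3.17%, also had no match. Only the GC box and the E-box contain a CG dinucleotide, the motifs overlap nowhere in these windows, and a match is a description of letters only. The windows of Ptpro and Slc9a4, which were high where these genes were low, matched none of the 5 motifs and held 8 and 4 CG dinucleotides.

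Values are log2 signals, so a step of 1 is a doubling. Medians lay between 7.99 and 8.07 for all 13 arrays, taken over the 15633 gene-linked probe sets, and correlations between arrays ran from 0.9852 to 0.9976. Control replicate 8 had the lowest median correlation with the others (0.9901), followed by fructose replicate 4 (0.9917). Control replicates 1 and 2 had the narrowest interquartile ranges, 2.19 and 2.15, against 2.26 to 2.5 elsewhere. Without detection p-values, the height of a dim signal over background is unknown. Of 10 cerebellar list genes (the cerebellum was removed per the labels), Cbln1 and Calb1 were the widest, from 6.75 to 8.43 and from 9.10 to 10.28, both highest in fructose replicate 4. The granule cell markers Fat2 and Gabra6 ran from 6.77 to 7.08 and from 5.41 to 6.01.

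The standard deviation (SD) over the 13 arrays was 1.35 for C14h1orf146, the widest of all 15633 probe sets. It was 1.02 for Ptpro (rank 3), 0.99 for Olr59 (rank 4), 0.84 for Slc9a4 (rank 8), 0.77 for Cd200r1 (rank 13), 0.76 for Nkg7 (rank 14) and 0.72 for Cd34 (rank 17). The median SD was 0.114, and 98 probe sets, 0.63% of all, exceeded 0.5. Just outside the chosen genes, Hpcal1 at rank 18 also had an SD of 0.72, and Ogn (rank 2), Slc17a6 (rank 5) and Ptgds (rank 6) were wider than most of the 7.

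Whether the signal had 2 levels was described by the largest gap between neighbouring arrays once sorted. A gene was called separated where that gap exceeded 30% of the range with at least 2 arrays on each side. Olr59, Ptpro and Cd34 met this, with gaps of 43.3%, 40.7% and 30.5% of their ranges. The gap of Cd34 was 29.0% with quantile normalization and 29.1% with cyclic loess, so its separation rests on the scaling. Cd200r1 (27.5%), Slc9a4 (21.0%) and C14h1orf146 (17.3%) were graded, and Nkg7 had 1 array apart from 12. The name of 2 levels therefore fitted 3 of the 7 genes. Of all probe sets, 14.93% met the same rule, mostly over narrow ranges, as did 37.8% of the 98 with an SD over 0.5.

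**Figure D1:**
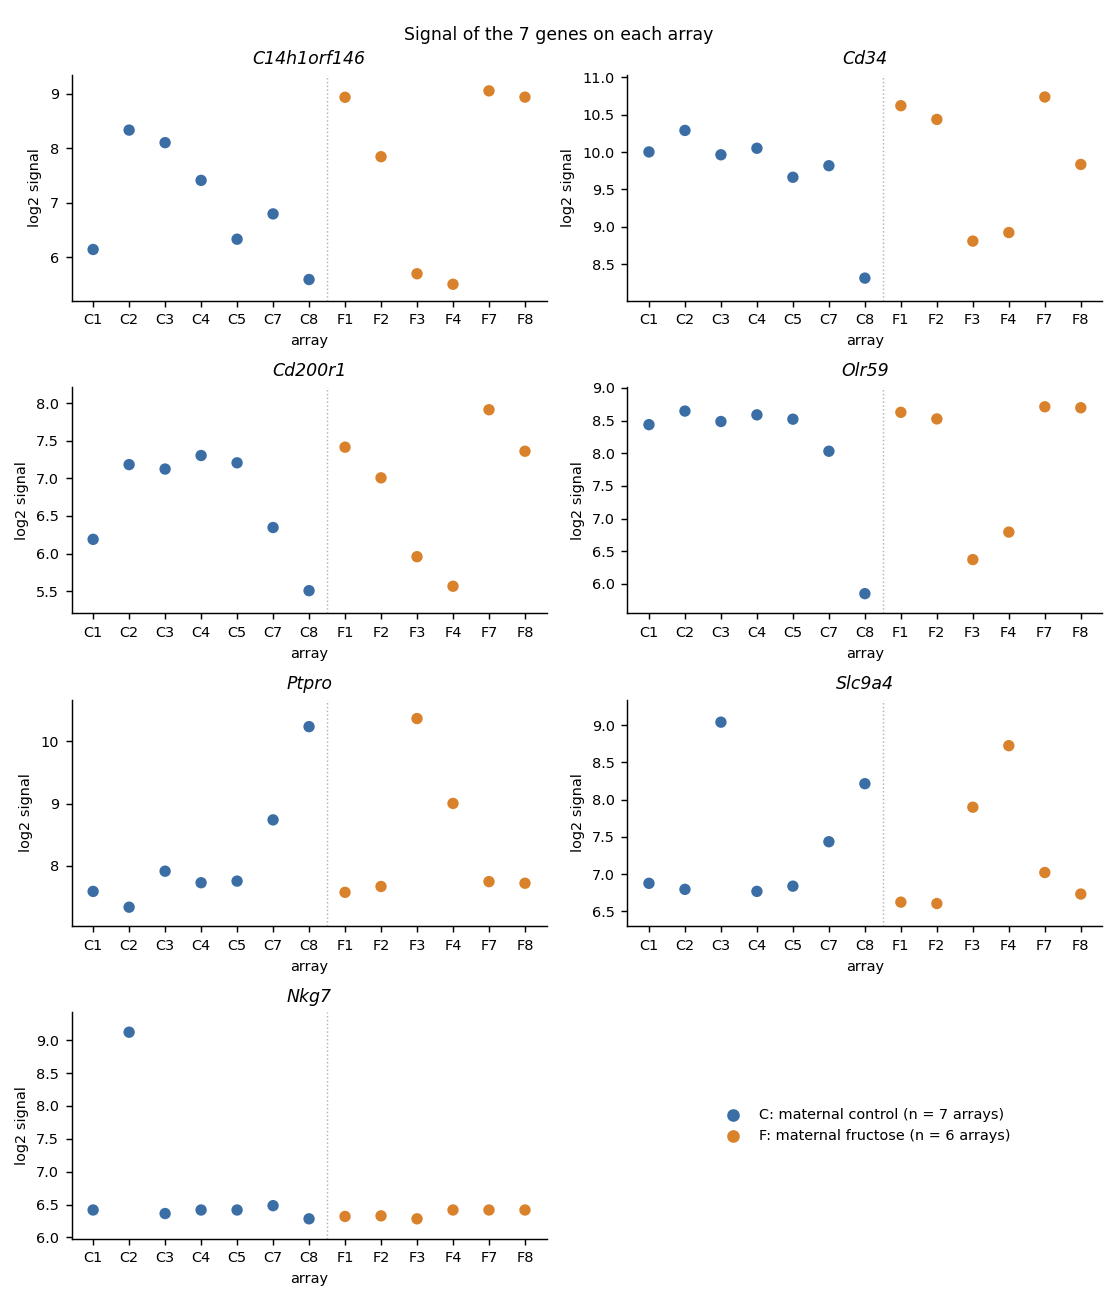
Signal of each gene on each array (y axis, log2 signal; x axis, the array, C for maternal control and F for maternal fructose, with its replicate number); each point is 1 array. C8, F3 and F4 are the lowest points of Olr59 at 5.85, 6.37 and 6.79, and C2 is alone at 9.12 for Nkg7.

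Olr59 was the clearest case of 2 levels. Its control values had a lowest of 5.85, a median of 8.49 and a highest of 8.65, and its fructose values 6.37, 8.58 and 8.71. Control replicate 8 (5.85), fructose replicate 3 (6.37) and fructose replicate 4 (6.79) were low, and the next array, control replicate 7, was at 8.03. The other 9 lay between 8.44 and 8.71, so 10 arrays were at the upper level and both diets were present at each level. The range from lowest to highest was 7.3-fold.

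Cd34 was low on the same 3 arrays. Its control values ran from 8.32 to 10.29 with a median of 9.96, and its fructose values from 8.81 to 10.73 with a median of 10.13. Control replicate 8 was at 8.32, fructose replicate 3 at 8.81 and fructose replicate 4 at 8.93, and the next array at 9.66. The whole range was 5.3-fold.

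Cd200r1 ran from 5.51 to 7.30 in control samples (median 7.12) and from 5.57 to 7.91 in fructose samples (median 7.18). Control replicate 8 (5.51), fructose replicate 4 (5.57) and fructose replicate 3 (5.96) were again the lowest. Control replicates 1 (6.19) and 7 (6.35) came next, below the other 8 arrays, which began at 7.01. Cd200r1 thus had 5 low arrays where Olr59 and Cd34 had 3.

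C14h1orf146 had the widest range, 11.7-fold, and no clear break. Its control values had a lowest of 5.59, a median of 6.79 and a highest of 8.33, and its fructose values 5.50, 8.39 and 9.06. The lowest arrays were fructose replicate 4 (5.50), control replicate 8 (5.59) and fructose replicate 3 (5.69), as for the genes above. For comparison, the mean of 1104 other olfactory receptor genes was 5.29 to 5.51 in control samples and 5.36 to 5.4 in fructose samples. Without detection p-values, how far these 3 low values lie above background is unknown, so the fold range describes signal only. Control replicates 1 (6.14), 5 (6.33) and 7 (6.79) were intermediate, and fructose replicates 7 (9.06), 8 (8.94) and 1 (8.94) were the highest. Fructose replicate 7 had the highest deposited value for Olr59, Cd34, Cd200r1 and C14h1orf146.

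Ptpro ran the other way. Its control values had a lowest of 7.34, a median of 7.76 and a highest of 10.23, and its fructose values 7.58, 7.74 and 10.36. Fructose replicate 3 (10.36) and control replicate 8 (10.23) formed the upper level. Fructose replicate 4 (9.0) and control replicate 7 (8.74) lay in between, and the other 9 arrays were at 7.92 or lower. The range was 8.1-fold.

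Slc9a4 was high on those arrays and on 1 more. Its control values ran from 6.77 to 9.04 with a median of 6.87, and its fructose values from 6.60 to 8.72 with a median of 6.88. The highest array was control replicate 3 (9.04), where Ptpro (7.92), Olr59 (8.49) and Cd34 (9.96) were not apart. Fructose replicate 4 (8.72), control replicate 8 (8.21), fructose replicate 3 (7.90) and control replicate 7 (7.43) followed, and the other 8 arrays were at 7.02 or lower.

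Control replicate 8, fructose replicate 3 and fructose replicate 4 were thus the 3 lowest arrays for C14h1orf146, Cd34, Cd200r1 and Olr59 and the 3 highest for Ptpro. These arrays were singled out after the values were seen. They were the 3 lowest for 272 probe sets of all tested (1.74%) and the 3 highest for 306 (1.96%). Among the 98 probe sets with an SD over 0.5 the counts were 17 and 21. The 3 lowest arrays of these 4 genes and the 3 highest of Ptpro were the same after median centring, quantile normalization and cyclic loess.

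**Figure D2:**
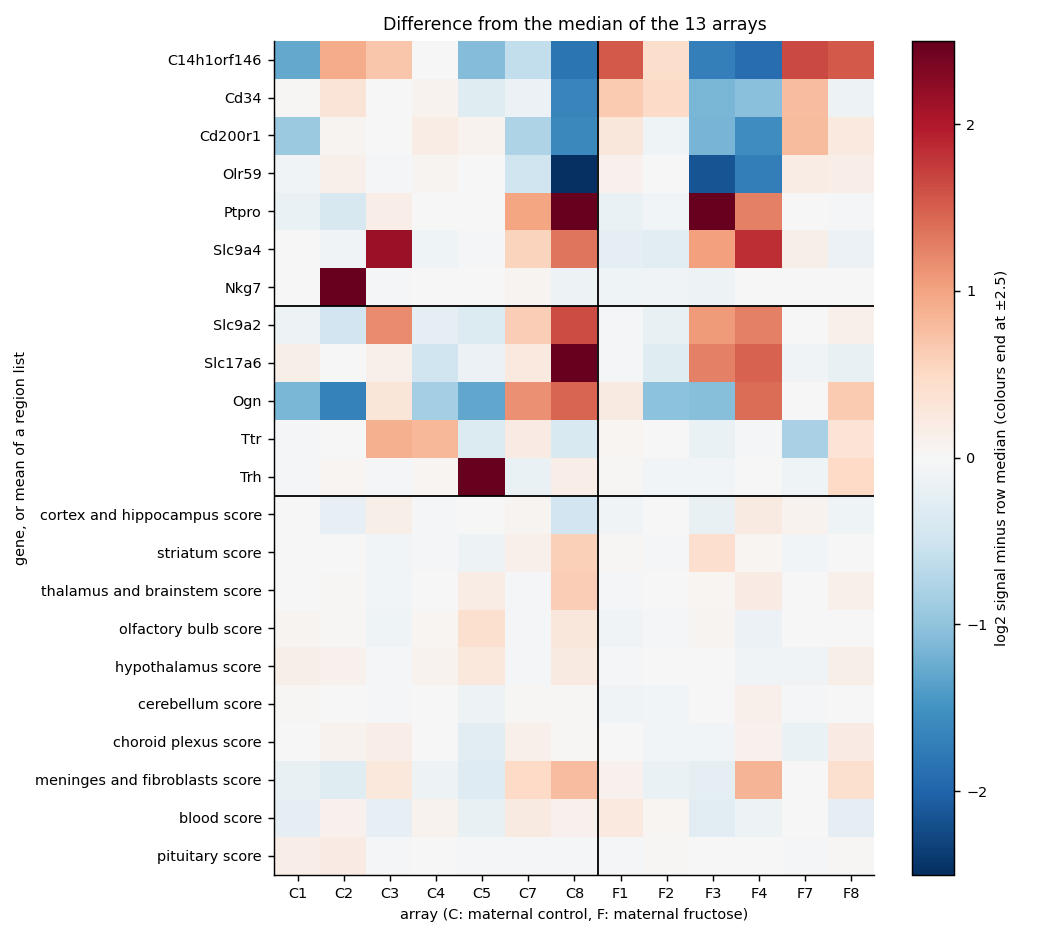
Difference of each gene, or of the mean of each region list, from its median over the 13 arrays (colour, log2 signal, with colours ending at ±2.5; rows, genes and lists; columns, arrays, C for maternal control and F for maternal fructose). The columns C8, F3 and F4 are blue for C14h1orf146, Cd34, Cd200r1 and Olr59 and red for Ptpro, Slc9a4, Slc9a2 and Slc17a6.

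Of the regional genes compared, Slc17a6 followed the same 3 arrays and the others did so in part or not at all. Slc17a6, which encodes the vesicular glutamate transporter VGLUT2 of thalamic, hypothalamic and brainstem neurons, was highest in control replicate 8 (9.15), fructose replicate 4 (8.04) and fructose replicate 3 (7.83), and at 6.82 or lower on the other arrays. Its 3 highest arrays were those at the lower level of Olr59. The thalamic and brainstem list as a whole did not follow Slc17a6 on all 3 arrays. The mean of its 8 measured genes, Slc17a6 among them, was highest in control replicate 8 (7.68) and fructose replicate 4 (7.28). Fructose replicate 3 (7.12) lay below control replicate 5 (7.24) and fructose replicate 8 (7.19). Ogn, of leptomeningeal fibroblasts, ordered the arrays differently: it was at 10.41 in control replicate 8 and 10.36 in fructose replicate 4, but at 7.90 in fructose replicate 3 and 10.10 in control replicate 7. Ttr, of the choroid plexus, was highest in control replicates 3 (8.01) and 4 (7.96). Trh, a hypothalamic and olfactory bulb peptide gene, was high in control replicate 5 alone (9.69). The mean of 11 striatal genes was highest in control replicate 8 (8.69) and fructose replicate 3 (8.51), with the other arrays from 7.98 to 8.21. The mean of 8 cortical and hippocampal genes did not set the 3 arrays apart: it was lowest in control replicate 8 (8.59), 8.88 in fructose replicate 3 and highest in fructose replicate 4 (9.29). This mean pools genes that differed in direction. Neurod6 (7.88), Fezf2 (7.54) and Neurod2 (8.82) were lowest in control replicate 8 and Rasgrf2 (9.12) in fructose replicate 4. Prox1 (8.73) and Wfs1 (11.34) were highest in fructose replicate 4. The part of the regional genes in the levels of the 7 genes was not tested beyond the relations below, in which the striatal list lacks its 2 highest arrays.

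The relation of each gene to the mean level of each of 10 lists of region and tissue genes was tested over arrays, giving 70 relations. Where a gene or a list was separated into 2 levels, only the larger set of arrays entered. The low arrays of Olr59 and Cd34 and the 2 highest of Ptpro therefore played no part in their relations. The striatal, olfactory bulb and pituitary lists were separated too, so their 2 highest arrays were left out for every gene. For the striatal list these were control replicate 8 and fructose replicate 3. None of the 70 passed an adjusted p of 0.05 by Pearson r or by Spearman rho with a permutation test, and 9 had an unadjusted Pearson p under 0.05. The smallest Pearson p was that of Ptpro with meningeal and fibroblast genes over 11 arrays (r = 0.84, p = 0.00091, adjusted p = 0.0637, permutation test). The Spearman rho was 0.57 (p = 0.0698, adjusted p = 0.978, permutation test), and r was 0.49 without the 2 arrays farthest from the median of the list, so this relation rests on them. The smallest Spearman p was that of Ptpro with cortical and hippocampal genes over 11 arrays (rho = 0.85, p = 0.00166, adjusted p = 0.116, permutation test), with r = 0.73 (p = 0.0103, adjusted p = 0.241, permutation test) and r = 0.40 without the 2 farthest arrays. The mean of the cerebellar list varied little over the arrays, from 7.21 to 7.46 (SD 0.063). Cd200r1 and cerebellar list genes had r = -0.74 over 13 arrays (p = 0.00228, adjusted p = 0.0798) and rho = -0.75 (p = 0.00437, adjusted p = 0.153, permutation tests), with r = -0.72 without the 2 farthest arrays. The scaling changed these calls. With either quantile normalization or cyclic loess 4 relations passed: Ptpro with meningeal genes, Cd200r1 with cerebellar genes, Ptpro with cerebellar genes (r = 0.91 and 0.94, 11 arrays) and Cd34 with thalamic and brainstem genes (r = -0.77 in both). The last entered with 13 arrays there, since Cd34 was no longer separated. After median centring the first 2 passed. Without control replicate 5 both passed together with C14h1orf146 and cerebellar genes (r = -0.75, 12 arrays). Without fructose replicate 1 or fructose replicate 3 Ptpro with meningeal genes passed, and without control replicate 7 Ptpro with cortical and hippocampal genes. Within the control group 30 of the 70 relations could be computed and within the fructose group 8, and 0 passed in either.

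The probe sets most like each gene were found by Pearson r over the 13 arrays among all probe sets with 1 symbol, as a description. For Olr59 they were Cacng2 (r = 0.98), an AMPA receptor auxiliary subunit, Pvalb (0.97), the parvalbumin of fast-spiking interneurons, and Tacr3 (0.97), the neurokinin B receptor. Within the 10 arrays of the upper level these r were 0.81, 0.93 and 0.63. Inpp4b, an inositol phosphatase, was most opposite to Olr59 (r = -0.98) and among the 3 most like Ptpro (0.96), beside Dner (0.98), a Notch ligand of neurons, and Lmo7 (0.97). Within the 11 arrays of the lower Ptpro level these 3 were at 0.92, 0.91 and 0.91. Socs2, a suppressor of cytokine signalling, was most opposite to Ptpro (r = -0.97, but rho = -0.58).

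Cd34 was most like C8h11orf87, the ubiquitin ligase gene Hecw1 and Cdk2ap1 (r = 0.98, 0.98 and 0.97), and most opposite to Kcnn3 (-0.95), a calcium-activated potassium channel gene. Within the 10 arrays of its upper level the first 3 were at 0.87, 0.90 and 0.93. C14h1orf146 was most like Kcnc1 (0.97), the potassium channel Kv3.1 of fast-spiking neurons, Coro2b (0.97) and the neuronal repressor Scrt1 (0.96), and most opposite to the splicing factor Celf6 (-0.96). Cd200r1 was most like Abcd2, a peroxisomal transporter, Plaat1 and Sema7a, a membrane semaphorin (0.95 each), and most opposite to the vesicle GTPase gene Rab3b (-0.94). Slc9a4 was most like the receptor phosphatase gene Ptprg (0.95), Cpne7 (0.93) and the lysophosphatidic acid receptor gene Lpar4 (0.93), and most opposite to Pnpla3 (-0.91), a lipase of lipid droplets. The number of probe sets at r of 0.9 or more, of 15309 compared, was 49 for Ptpro, 48 for Cd34, 45 for Olr59, 33 for Cd200r1, 18 for Nkg7, 15 for C14h1orf146 and 10 for Slc9a4. At r of -0.9 or less it was 42 for Olr59, 28 for Ptpro, 14 for Cd34, 7 for Cd200r1, 7 for Nkg7, 5 for C14h1orf146 and 1 for Slc9a4. No such count was made for other probe sets, so whether these numbers are large is unknown. The points of each r share arrays and scaling, and the arrays that stand apart weigh heavily in them.

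The related genes of each system are given as a description, since an SD over 0.5 was rare in any list (0.63% of all probe sets). Of 14 other endothelial genes measured, the widest was Podxl2 with an SD of 0.242, against 0.72 for Cd34. Pecam1, an adhesion molecule of endothelium, ran only from 7.72 to 7.91 and Cldn5, of tight junctions, from 8.38 to 8.66, and r with Cd34 ran from -0.22 to 0.54 over the list. Of 18 other microglial and macrophage genes, the widest was Cx3cr1, the fractalkine receptor (SD 0.18), against 0.77 for Cd200r1. The r of these 18 genes with Cd200r1 had a median of -0.24 and ran from -0.43 to 0.36. Of the 18, 12 were highest in control replicate 8, where Cd200r1 was lowest and where 11.35% of all probe sets had their highest value. Cd200, the ligand, ran from 9.86 to 10.37. The mean of the microglial list lay between 8.01 and 8.34 in control and 8.11 and 8.16 in fructose samples.

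In a list of 8 genes, made of Ptpro subfamily phosphatases, podocyte genes and Ntrk3, the largest SD was 0.215, for the podocyte sialomucin Podxl. The r of these genes with Ptpro ran from -0.50 to 0.46. Of 15 other genes of meiotic recombination and synapsis, the largest SD was 0.289, for Hormad1, and the mean of the list ran from 5.88 to 6.07 over the arrays. The median r of these genes with C14h1orf146 was 0.05. The SDs of 1104 other olfactory receptor genes had a median of 0.142 and a maximum of 0.484. Among 11 genes of olfactory signal transduction only Gnal, the olfactory and striatal G protein alpha subunit, exceeded 0.5 (SD 0.59). Gnal was highest in control replicate 8 (10.14), where Olr59 was lowest.

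Beside Slc9a4, 1 of 7 other sodium-proton exchanger genes and regulators was nearly as wide. Slc9a2, which encodes the exchanger NHE2, had an SD of 0.71 (rank 20). It was at 8.65 in control replicate 8, 8.28 in fructose replicate 4, 8.21 in control replicate 3, 8.09 in fructose replicate 3 and 7.64 in control replicate 7. These were also the 5 highest arrays of Slc9a4, in another order, and the other 8 were at 7.15 or lower. Pearson r between both genes was 0.90 and rho 0.74 over 13 arrays, given as a description. In the RefSeq order of chromosome 9 in GRCr8, Slc9a2 is the nearest measured gene after Slc9a4, with 1 gene between them.

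**Figure D3:**
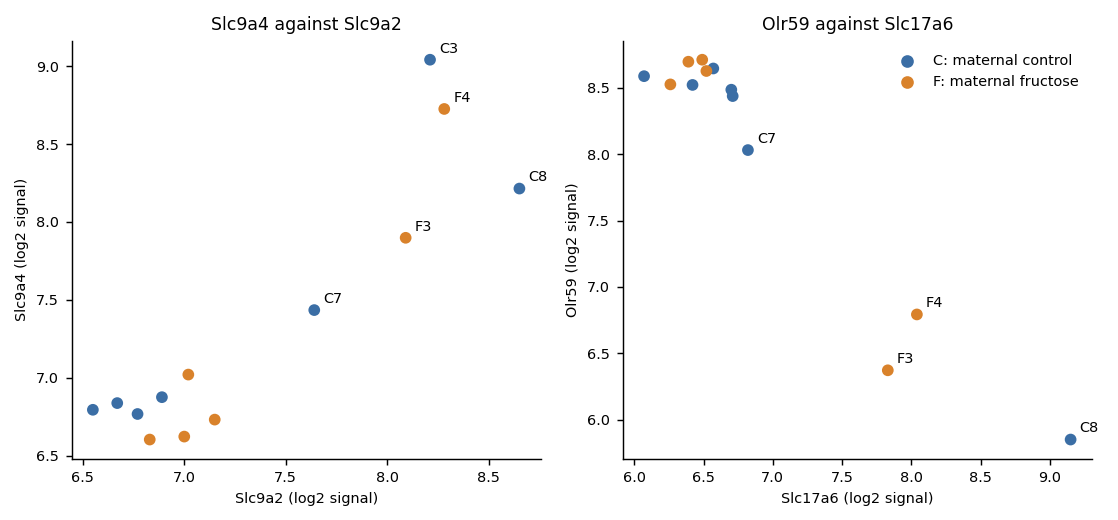
Slc9a4 against its neighbour Slc9a2, and Olr59 against Slc17a6 (both axes in log2 signal; each point is 1 array, with maternal control and maternal fructose in different colours). C3, C7, C8, F3 and F4 are the 5 highest arrays for both exchanger genes, and C8, F3 and F4 are highest for Slc17a6 and lowest for Olr59.

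The genome neighbours of the other genes did not share such a range. Of the 28 neighbours taken, the 2 nearest measured genes on each side of each gene, Slc9a2 had the widest SD and Mgst1, after Ptpro, the next (0.26, r = 0.64 with Ptpro). Il18r1 and Il1rl1, interleukin receptor genes on the other side of Slc9a4, had SDs of 0.15 and 0.07. Around Olr59 the neighbours were 4 other olfactory receptor genes with SDs from 0.06 to 0.18, of which Or51f23c had r = 0.78 with it. Beside Cd34, r was -0.01 for Plxna2, 0.62 for Camk1g, -0.48 for Cd46 and -0.62 for Cr1l, with SDs from 0.09 to 0.18. Beside C14h1orf146, r was -0.13 for Glmn, -0.05 for Rpap2 and 0.62 for both Lpcat2b and Ephx4, with SDs from 0.08 to 0.20.

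Nkg7 differed from the other 6 genes in resting on 1 array. Control replicate 2 was at 9.12, and the other 12 arrays lay between 6.28 and 6.48. The 6 other control values had a highest of 6.48, and the fructose values a lowest of 6.28, a median of 6.37 and a highest of 6.42. Among those 12 arrays 6 held the same value, 6.418, and 1.27% of all probe sets had 6 or more arrays at an identical value.

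Genes of cytotoxic lymphocytes were high on the same array. Of 22 genes of that list measured, 17 were highest in control replicate 2, where 9.94% of all probe sets had their highest value. The share differed between other lists. It was 5 of 8 pituitary, 5 of 10 cerebellar and 177 of 1104 other olfactory receptor genes, but 0 of 11 striatal and 0 of 8 cortical and hippocampal genes. Some of the 17 led the next array by little, such as Cst7 by 0.05 and Cd3g by 0.06. Klrc1, a natural killer receptor gene, stood farthest above the other arrays, at 7.08 there and at 5.31 or lower elsewhere. The granule protease gene Gzmk was at 8.17 and 6.62 or lower, the chemokine gene Ccl5 at 8.67 and 7.22 or lower, Gzma at 7.26 and 5.92 or lower, and Prf1, perforin, at 8.21 and 6.92 or lower. Il2rb (7.71 against 7.02 or lower) and Cd8a (7.68 against 7.07 or lower) were higher by less, and Cd3e by 0.15 over the next array. Cd3d, Cd8b, Ifng, Gzmc and Gzmm were not highest there.

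Among all tested, 9 probe sets lay more than 1 above every other array in control replicate 2. They were Nkg7, Klrc1, Gzmk, Ccl5, Gzma, Prf1, Gzmb and 2 probe sets of LOC100361261, the last chosen after the values were seen. The 3 genes most like Nkg7 were Ccl5, Gzmk and Klrc1 (r = 0.98, 0.98 and 0.97), which rest on that array, since rho was -0.04, 0.16 and 0.38. The mean of the lymphocyte list was 7.06 in control replicate 2, at most 6.45 in other control samples and 6.31 to 6.38 in fructose samples. Of 18 microglial and macrophage genes, 0 were highest in control replicate 2, and their mean was lowest there (8.01). Of 7 blood genes 1 was, the red cell anion exchanger Slc4a1, by 0.12 over the next array, while the globin gene Hbb was at 11.38 there and at 10.55 to 11.95 elsewhere. Control replicate 2 also had the narrowest distribution of signals, and control replicate 1, with Nkg7 at 6.42, the next narrowest. The part of this narrowness in the levels was not tested.

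**Figure D4:**
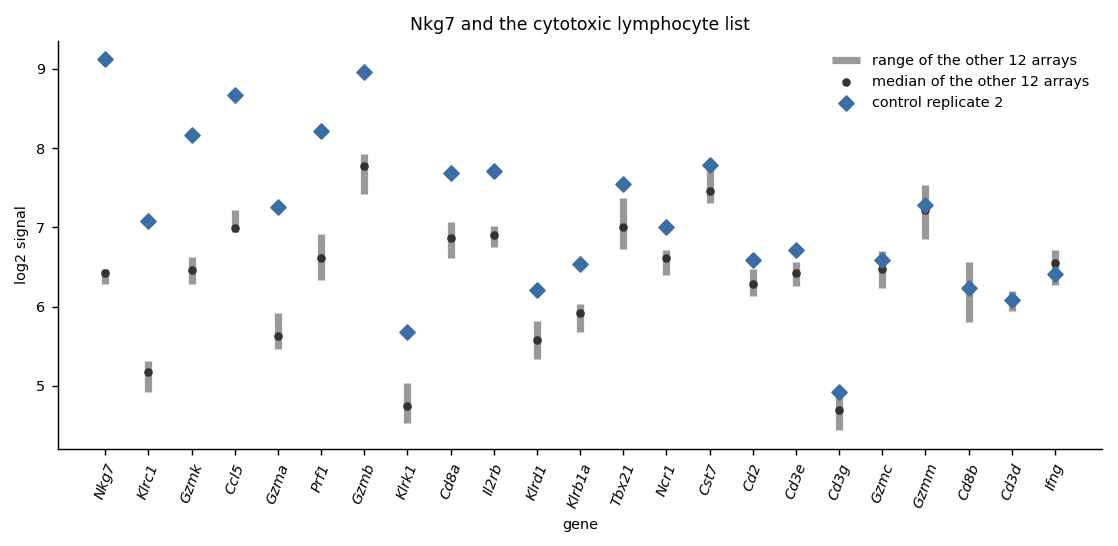
Signal of Nkg7 and of the 22 measured genes of the cytotoxic lymphocyte list (y axis, log2 signal; x axis, genes ordered by how far control replicate 2 lies above the median of the other arrays). Diamonds are control replicate 2, grey bars the range and dots the median of the other 12 arrays; for Nkg7 the diamond is at 9.12 and the bar ends at 6.48.

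The comparison of the diets asked whether the maternal diet accompanied these levels in the offspring. None of the 7 genes passed an adjusted p of 0.05 in limma, fitted over all 15633 probe sets, where 0.0% passed, and 0 of the 7 had an unadjusted p under 0.05, where 2.23% of all did. By the exact 2-sided permutation test of each gene over the arrays, the p-values ran from 0.359 to 0.912. The diet groups overlapped for all 7 genes, and did not overlap for 0.0384% of all probe sets.

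C14h1orf146 had the largest difference, with a control mean of 6.96 ± 1.03 (SD, n = 7) and a fructose mean of 7.66 ± 1.66 (SD, n = 6), 0.70 ± 0.65 (SE) higher (limma adjusted p = 0.9998, exact permutation p = 0.359). The 95% interval ran from -0.67 to 2.08, and 4 of 6 fructose samples lay above the control mean. Nkg7 differed by -0.42 (interval -1.20 to 0.36), and by -0.03 without control replicate 2. The differences of Cd200r1, Cd34 and Ptpro were 0.18, 0.16 and 0.16, and those of Slc9a4 and Olr59 -0.16 and -0.13. Their 95% intervals reached at least 0.60 on either side of 0, so differences of that size were not detectable with this number of arrays. The median standard error was 0.419 for the 7 genes and 0.063 for all probe sets.

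The direction of 5 of these differences turned when single arrays were left out. Without control replicate 8 the difference was -0.07 for Cd34 and -0.02 for Cd200r1, and without fructose replicate 7 it was -0.0040 and -0.03. Without fructose replicate 3 it was 0.19 for Olr59 and -0.24 for Ptpro, and without fructose replicate 4 it was 0.11 for Olr59. Without control replicate 3 it was 0.11 for Slc9a4. Of the other genes of their families and cell types, 0 passed in any list. Over all probe sets 54.1% were higher in the fructose group, with a median difference of 0.0056. The sodium-proton exchanger list had 7 of 7 genes higher with a median difference of 0.051, and 6 or 7 of 7 with any 1 array left out. The cytotoxic lymphocyte list had 4 of 22 higher and 18 lower with a median of -0.065, which rested on control replicate 2: without it 13 were higher and 9 lower, with a median of 0.022, and 50.7% of all probe sets were higher.

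**Figure D5:**
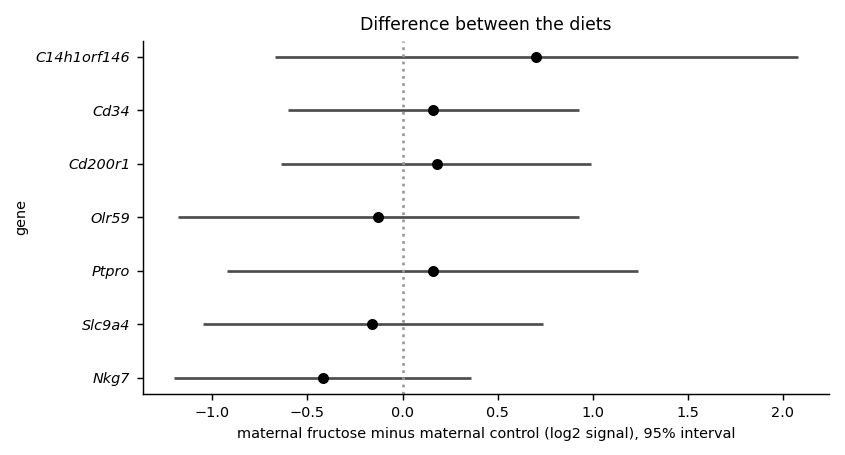
Difference between the diets for each gene (x axis, maternal fructose minus maternal control in log2 signal; y axis, genes); points are differences of group means and lines 95% intervals from limma, with 7 control and 6 fructose arrays. All 7 intervals include 0, and that of C14h1orf146 is the widest, from -0.67 to 2.08.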

How the data were processed

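RNA of brain without cerebellum was labelled from 100 ng per sample and hybridised to an Affymetrix rat gene array, 1 array per sample. The deposited table holds log2 signals per probe set. Per the submitters' processing notes the tools were R 3.0.1 and RMA, which corrects background, normalizes between arrays and summarises probes; the array annotation used upstream is not given in the sources used here. Genes came from the platform annotation (15310 probe sets with 1 symbol, 323 with several, 13581 with none), and all 7 genes were found by Entrez identifier in the RefSeq table of GRCr8, used for gene order and upstream sequences.

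The 15633 probe sets with a gene were fitted with limma 3.58.1 in R 4.3.3, as the maternal fructose mean minus the control mean with no filter, and adjusted by Benjamini-Hochberg over all. Single genes were also tested by an exact permutation test over all 1716 splits of the 13 arrays. Region relations used 100000 permutations, exact below 10 arrays, on the mean log2 value of each list with the brightest probe set per gene, and were adjusted over the 70 relations. Scripts were tested on simulated data. Named genes were the 7 genes, the 3 probe sets most like and the 1 most opposite to each, list members with the widest SD (up to 3 a list), Slc17a6, Ogn, Ttr, Trh and the 2 nearest measured neighbours on each side; other list genes were named to show the lists. The members and lists were chosen with earlier results of these data known. Alternatives covered scaling, array weights, an intensity trend, a filter on dim probe sets, all probe sets, a replicate block and arrays left out.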

Additional observations from a re-analysis of the deposited data

Results flagged for a closer look

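In 56 sets of values (a gene or a list mean in 1 diet group), 19 values lay apart from their group by Dixon's criterion. Chance marks about 1 in 20 sets, but these genes were chosen with their outlying arrays known, so the number is a description and not a test. Of the 7 genes, Cd34 (8.32) and Olr59 (5.85) were low in control replicate 8, and Nkg7 was high in control replicate 2 (9.12). On control replicate 8 the signal of Slc17a6 (9.15) and the means of striatal (8.69) and thalamic and brainstem genes (7.68) were high as well, and the striatal mean was also high in fructose replicate 3 (8.51). On control replicate 2 the values of Gzmb (8.96), Ccl5 (8.67), Prf1 (8.21), Gzmk (8.17), Gzma (7.26) and Klrc1 (7.08) stood apart like that of Nkg7. Ccl5 was also at 7.22 in fructose replicate 7, above 7.02 in the next. Trh was at 9.69 in control replicate 5 and 7.49 in fructose replicate 8, where the mean of hypothalamic genes was 7.64. In control replicate 5 the means of cerebellar (7.21) and choroid plexus genes (6.67) were low.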

How the results depend on the processing

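In limma 0 probe sets and 0 of the 7 genes passed under every alternative run. The diet differences kept their sign in 149 of 159 alternatives. Without control replicates 1 and 2 together, Olr59 turned to 0.0592 and Ptpro to -0.128. With 1 array left out, the differences ran from 0.426 to 1.14 for C14h1orf146, -0.0709 to 0.381 for Cd34, -0.0327 to 0.437 for Cd200r1, -0.497 to 0.191 for Olr59, -0.242 to 0.502 for Ptpro, -0.448 to 0.113 for Slc9a4 and -0.506 to -0.0331 for Nkg7. The number of region relations past the threshold was 2 with median centring, 4 after quantile normalization, 4 after cyclic loess and 0 to 3 with 1 array left out. The cause was not tested. Cd200r1 and Nkg7 gave no value without the 30% dimmest probe sets, since they were among them.

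The labels do not say what the replicate numbers mark. Of 6 shared numbers, 1 had a correlation of deviations over 0.1 (range -0.335 to 0.187), and 0 correlated best with their own number. These values cannot settle whether the numbers pair the samples, since a shared litter or day need not show in them. With the number as a replicate block, 0 probe sets passed and the differences were 0.6 for C14h1orf146, 0.153 for Cd34, 0.261 for Cd200r1, -0.0518 for Olr59, 0.0893 for Ptpro, -0.254 for Slc9a4 and -0.484 for Nkg7. The number of arrays limits every value, and no detection p-value sets a floor for dim probe sets such as those of Nkg7 and Cd200r1.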
